A study of Cricetiscus sungorus with 24 samples.

Results

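Dad1 (Defender Against Cell Death 1) is a small subunit of the oligosaccharyltransferase, and the 10 genes described here are Dad1, 6 further genes of that enzyme (Ddost, Ostc, Rpn1, Rpn2, Stt3a and Stt3b) and 3 genes of the translocon-associated protein complex, TRAP (Ssr2, Ssr3 and Ssr4). They were taken by gene symbol from the count tables of both experiments, with the transcript of most reads standing for each gene, and are 10 of the 9681 genes listed in experiment 1 and 10 of the 15842 listed in experiment 2. Dad1 was selected on its levels in experiment 1, where the paper placed it in a group of co-expressed genes negatively associated with convoluted tubule diameter. Its levels there were highest at SP12wk, and the partners were chosen by their membership of the same complexes. Dad1's values in that experiment are therefore a description, and the question was whether its partners took the same course. In the kidneys of Siberian hamsters (Djungarian hamsters), no partner differed significantly between the photoperiod groups and none of the 10 genes between the injection groups. By their means, Rpn1, Ostc and Ssr3 were highest at SP12wk as Dad1 was, Ddost, Ssr2 and Ssr4 were lowest in LP and highest at SP28wk, and Rpn2, Stt3a and Stt3b were highest in LP. Most of these orders rest on few reads, from 3 in all for Stt3a, 7 for Ssr2 and 11 for Stt3b to 67 for Ssr4.

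Experiment 1 held adult males, 4 per group. LP animals stayed in a long photoperiod with 16 h of light and 8 h of darkness per day, whereas SP12wk and SP28wk animals were exposed to a short photoperiod with 8 h of light and 16 h of darkness for 12 and 28 weeks. Experiment 2 held adult females, all moved from LP to 8 weeks of SP, of which 6 received the vehicle of dimethyl sulfoxide and saline (SAL) and 6 received 18 µg of prolactin in that vehicle (PRL), by intraperitoneal injection on 3 consecutive days. No strain name or age in weeks beyond adult is given in the sources used here, each library came from the kidney of 1 animal, and each experiment was sequenced on its own flow cell, so that sex, treatment history and sequencing run cannot be told apart between the experiments and levels were not compared across them.

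Most proteins that enter the secretory pathway of a cell are threaded into the endoplasmic reticulum through the Sec61 channel. The oligosaccharyltransferase sits beside that channel and moves a preassembled sugar chain from the lipid dolichol onto asparagine residues of the passing protein, a step called N-glycosylation. In the kidney, many receptors and transporters of the tubule membrane carry such sugars. STT3A and STT3B are alternative catalytic subunits, and DAD1, DDOST, RPN1 and RPN2 are shared by both forms of the enzyme. OSTC belongs to the STT3A form and helps to dock it to the channel, and TRAP is a companion complex of the channel that aids the entry of certain proteins.

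Depth set what could be seen. With 1 transcript per gene, libraries of experiment 1 held 15687.5 to 57584.9 counts, so that 1 count was worth 17.4 to 63.7 CPM, a count scaled to a fixed total shared by all libraries. Libraries of experiment 2 held 174053 to 756523 counts, with 1 count worth 1.32 to 5.75 CPM. Where no read was found, the true level may thus reach 52.1 to 191 CPM in experiment 1 and 3.97 to 17.2 CPM in experiment 2 (3 counts, counting error only). The 10 genes together had 253 reads in experiment 1 and 6767 in experiment 2. Of the 8 proximal tubule markers, 7 had counts in every group and Cubn was not listed, whereas in experiment 1 the collecting duct markers Aqp2 and Aqp4 were at 0. Plasma cell markers, from a cell type rich in this machinery, were not listed in experiment 1 (0 of 7) and summed to at most 13.7 CPM in experiment 2. In experiment 1, the proximal tubule markers summed to 2187 to 9408 CPM per LP library (median 5299), 6415 to 9738 CPM for SP12wk (median 8426) and 5713 to 11479 CPM for SP28wk (median 7025). Haemoglobin and other blood markers, of which Slc4a1 was at 0, had the same order of medians, with 14205 to 28899 CPM for LP (median 24521), 17519 to 44112 CPM for SP12wk (median 33003) and 20995 to 33240 CPM for SP28wk (median 29982). The part of either in the levels given next was not tested. In experiment 2 blood markers summed to 8912 to 19498 CPM. A lower level in whole kidney can come from fewer cells of a type or from less RNA per cell, which cannot be told apart.

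In experiment 1, the reads of Dad1 numbered 13 over the LP libraries, 34 over SP12wk and 17 over SP28wk. LP libraries measured 235, 0, 111 and 233 CPM, SP12wk libraries 163, 319, 351 and 509 CPM, and SP28wk libraries 39.5, 125, 229 and 86.8 CPM. The groups overlapped, since the lowest SP12wk library lay under the pair of high LP libraries and under the highest SP28wk library. As a description, since Dad1 was selected on its levels in this experiment, the fitted log2 fold change of SP12wk against LP and SP28wk in equal weight was 1.31 ± 0.50 (SE). The mean of LP was 145 ± 113 CPM, that of SP12wk 336 ± 142 CPM and that of SP28wk 120 ± 80.4 CPM (SD, n = 4), and these SDs were 1.11 to 1.30 times what read counting alone would give.

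**Figure D1:**
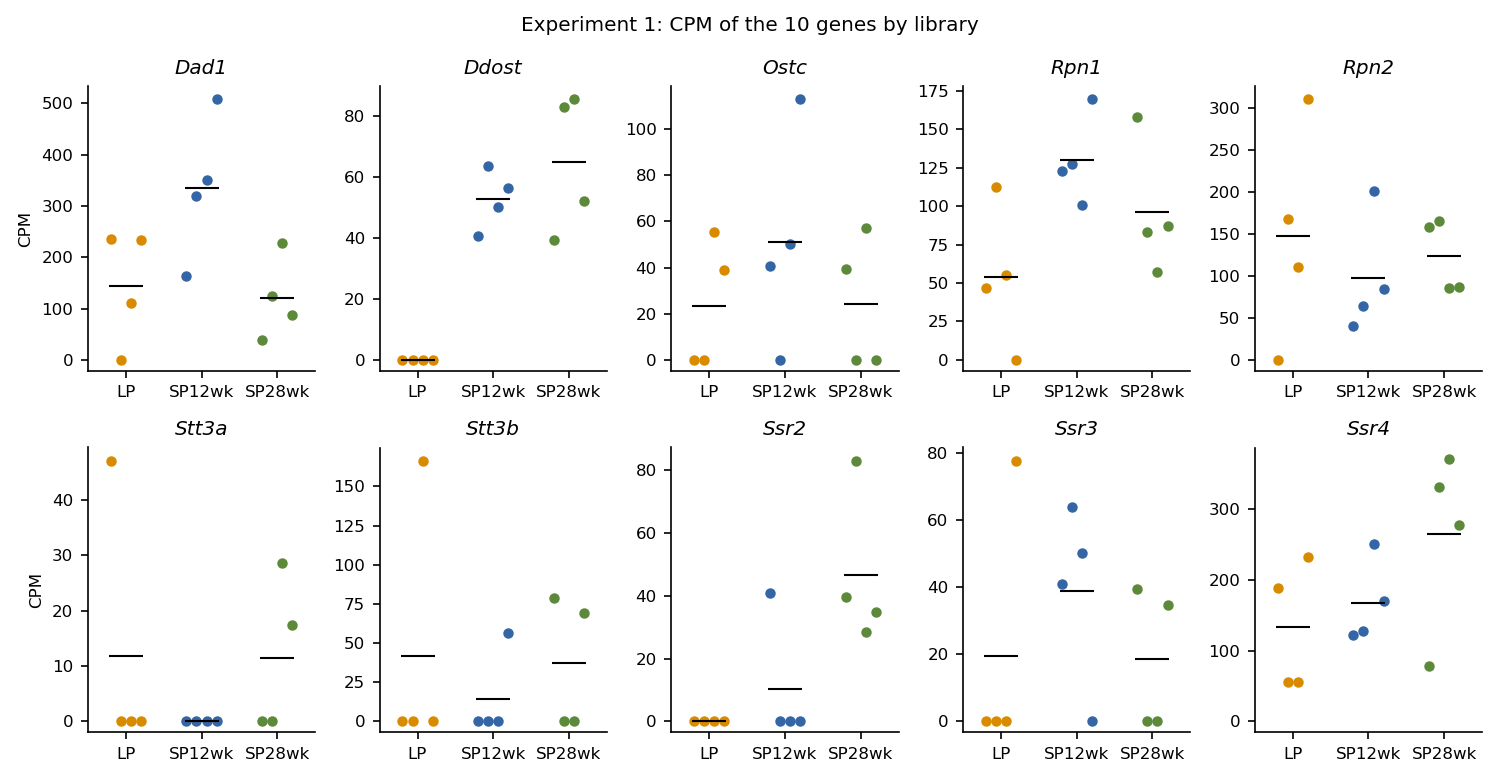
Level (CPM) of each of the 10 genes in the 12 libraries of experiment 1, with 1 point per animal and a horizontal bar at the group mean (n = 4 per group, each panel with its own axis). Dad1 and Rpn1 have their highest means at SP12wk, Ddost is at 0 in every LP library and above 0 in every SP library, and many points rest on 1 or 2 reads.

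The catalytic subunits were barely read in experiment 1. Stt3a had 3 reads in all, 1 in LP and 2 in SP28wk, and with a count in 3 libraries it fell short of the filter of 4 and was not tested. Stt3b had 11 reads, in 1 LP library (166 CPM), 1 SP12wk library (56.5 CPM) and 2 SP28wk libraries (79.0 and 69.5 CPM), and was at 0 in the other libraries. Its log2 fold change of SP12wk against LP and SP28wk was -0.78 ± 1.10 (SE). Nothing about the catalytic subunits could be resolved at this depth.

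Rpn1, which encodes ribophorin I and helps to hand certain substrates to the enzyme, had its highest mean at SP12wk and its lowest in LP. LP libraries read 47.0, 112, 55.5 and 0 CPM, those of SP12wk 123, 127, 100 and 170 CPM, and those of SP28wk 158, 83.0, 57.1 and 86.8 CPM. Of the 4 SP12wk libraries, 3 were above every LP library, but the highest SP28wk library was above 3 of them. The log2 fold change of SP12wk against LP and SP28wk was 0.96 ± 0.67 (SE), with a 95% interval from -0.34 to 2.27 (edgeR adjusted p = 0.814).

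For Ostc the LP values were 0, 0, 55.5 and 38.8 CPM, the SP12wk values 40.9, 0, 50.2 and 113 CPM, and the SP28wk values 39.5, 0, 57.1 and 0 CPM. Its 6 reads in SP12wk, against 2 in LP and 3 in SP28wk, gave a log2 fold change of 1.27 ± 0.94 (SE) and an interval from -0.57 to 3.11 (edgeR adjusted p = 0.848). Without SP12wk replicate 4, which held 4 of those 6 reads, it was 0.41. The point values of Dad1, Ostc and Rpn1 thus lay on the same side of 0, and for Ostc and Rpn1 the intervals ran from a lower level to more than a 4-fold higher one.

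Rpn2, the gene of ribophorin II, did not follow that order. Its LP libraries gave 0, 168, 111 and 311 CPM, its SP12wk libraries 40.9, 63.7, 201 and 84.8 CPM, and its SP28wk libraries 158, 166, 85.7 and 86.8 CPM. LP held both the lowest and the highest library, and the log2 fold change of SP12wk against the other groups was -0.46 ± 0.65 (SE, edgeR adjusted p = 0.960). Ssr3, a TRAP subunit with 8 reads in all, had its highest mean at SP12wk (38.7 ± 27.5 CPM, SD, n = 4), with 2 reads in LP and 3 in each SP group, and its means of 19.4 CPM for LP and 18.6 CPM for SP28wk gave it the order of Dad1. Its log2 fold change was 0.44 ± 1.03 (SE).

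Across the 8 partners tested in SP12wk against LP and SP28wk, none passed an adjusted p of 0.05 (background 0.0393% of 5086 genes), and none had an unadjusted p under 0.05, against 6.78% of all genes. The smallest adjusted p among them was 0.765, for Ddost. Of the 6 partners with a count in every group, 3 had a log2 fold change above 0 (Ostc, Rpn1 and Ssr3) and 3 below 0 (Rpn2, Stt3b and Ssr4), while 47.7% of all genes were above 0.

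Ddost, which encodes the subunit OST48, separated LP from SP. It had no read in LP, whereas SP12wk libraries measured 40.9, 63.7, 50.2 and 56.5 CPM and SP28wk libraries 39.5, 83.0, 85.7 and 52.1 CPM. Every SP12wk and every SP28wk library was therefore above every LP library, on 5 and 9 reads. Among the 5086 genes tested, Ddost was the only one with no count in the 4 LP libraries and a count in each of the 8 SP libraries (0.0197%), a pattern that was looked for after its values had been seen. Beside a floor of 3 counts over the LP group (36.2 CPM), the pooled level was 1.45-fold in SP12wk and 1.75-fold in SP28wk. These folds leave out the counting error of the 5 and 9 SP reads and are no lower bounds. At the pooled rate of the SP libraries, the 82855 counts of LP would have held 4.89 Ddost reads. In SP28wk against LP the unadjusted p was 0.00778, and the edgeR adjusted p of 0.412 missed the threshold. With no read in LP, Ddost could pass the filter only through SP libraries, so its pattern and p are no support for a difference.

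The TRAP genes Ssr2 and Ssr4 also had their lowest means in LP and their highest in SP28wk. Ssr2 had no read in LP, 1 read in SP12wk (40.9 CPM in replicate 1) and 39.5, 83.0, 28.6 and 34.7 CPM in SP28wk, so that each SP28wk library was above each LP library. Its pooled level in SP28wk was 1.17-fold the LP floor, with the counting error of its 6 reads left out (unadjusted p = 0.0163, edgeR adjusted p = 0.502). At the pooled SP rate LP would have held 2.44 reads. Ssr4 had a read in every library, at 188, 56.1, 55.5 and 233 CPM among LP animals, at 123, 127, 251 and 170 CPM after 12 weeks of SP, and at 79.0, 332, 371 and 278 CPM after 28 weeks. Of its SP28wk libraries 3 were above all of LP and 1 lay among them. The log2 fold change of SP28wk against LP was 1.23 ± 0.61 (SE; unadjusted p = 0.0418, edgeR adjusted p = 0.556).

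In SP28wk against LP, 0 of the 8 partners tested passed an adjusted p of 0.05 (background 0.216%), and Ddost, Ssr2 and Ssr4 had an unadjusted p under 0.05, against 8.57% of all genes. With DESeq2 this held for Ddost alone, and Ssr4 also missed it with limma-voom, the stricter filter, summed counts and the replicate block. Every SP28wk library was above every LP library for Ddost and Ssr2, 2 of the 9 genes tested (background 1.57%), and every SP12wk library above every LP library for Ddost alone (background 1.12%). None was below LP in every library of SP12wk (background 1.55%) or SP28wk (background 1.73%). Ddost and Ssr2, at 0 in LP, could pass the filter only through SP libraries, and Ssr2 did so through 4 SP28wk libraries and 1 SP12wk library, so that these counts are no support for a difference. No gene of the 9 separated SP12wk from SP28wk in either direction (background 1.53% above and 1.85% below). The median log2 fold change of all genes in SP28wk against LP was 0.18, and Rpn1 stood at 1.21 ± 0.87, Stt3b at 0.49 ± 1.07, Ostc at 0.17 ± 1.29, Ssr3 at 0.15 ± 1.20 and Rpn2 at -0.05 ± 0.66 (SE). The signs of Ostc, Ssr3, Rpn2 and Dad1 (-0.03) in this comparison turned with the method or with 1 library left out.

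Library composition moved with Ssr4. The 76 ribosomal protein genes took 12.9% ± 4.52 of counts in LP, 14.9% ± 1.24 in SP12wk and 15.6% ± 1.44 in SP28wk (SD, n = 4). Over the 12 libraries the log2 level of Ssr4 rose with this share (Pearson r = 0.782, permutation p = 6e-05, Spearman rho = 0.867, permutation p = 0.00039, adjusted over 19 relations 0.00114 and 0.00741), and r was 0.780 without the 2 libraries farthest in the share and 0.742 within groups. In experiment 2 the corresponding r for Ssr4 was -0.381 (permutation p = 0.228, adjusted 0.394). Its rho there was -0.720 (permutation p = 0.0102, adjusted 0.0969), opposite in sign to experiment 1. Both quantities are parts of the same total, and the part of composition in the level of Ssr4 was not tested.

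The deeper experiment 2 gave each of the 10 genes a count in all 12 libraries. Dad1 had 69 to 481 reads per library, with a lowest, median and highest level of 217, 430 and 498 CPM in SAL and 312, 492 and 636 CPM in PRL. SAL held a pair of low libraries (241 and 217 CPM in replicates 4 and 5) and 4 libraries between 419 and 498 CPM, and PRL held a pair of low libraries (312 and 317 CPM in replicates 3 and 4) and 4 between 483 and 636 CPM. The groups overlapped throughout, and the mean was 376 ± 117 CPM for SAL against 464 ± 127 CPM for PRL (SD, n = 6). The log2 fold change of PRL against SAL was 0.27 ± 0.22 (SE), a 1.21-fold higher level with an interval from 0.88-fold to 1.65-fold (edgeR adjusted p = 0.999).

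**Figure D2:**
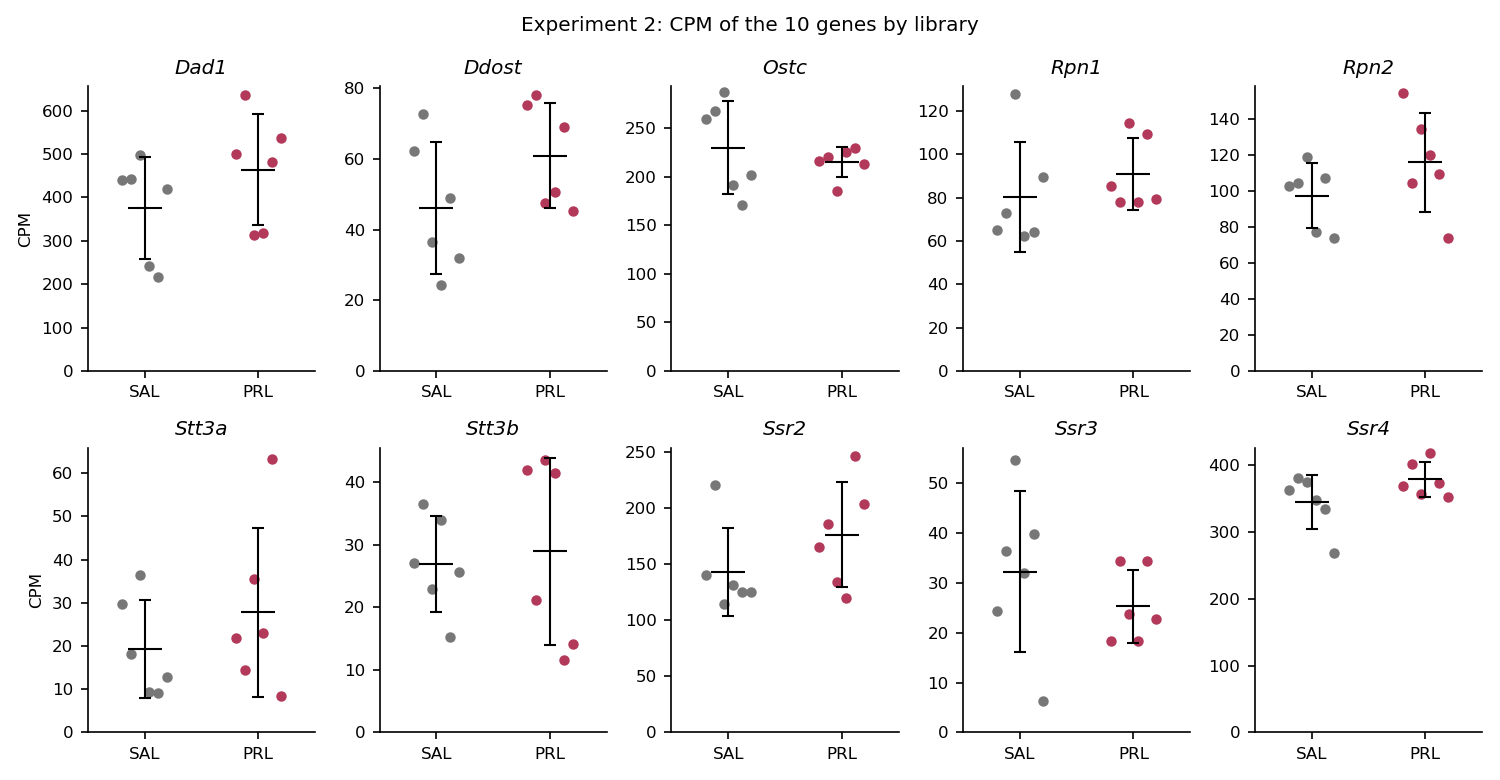
Level (CPM) of each of the 10 genes in the 12 libraries of experiment 2, with 1 point per animal, a horizontal bar at the group mean and error bars of 1 SD (n = 6 per group, each panel with its own axis starting at 0). SAL and PRL overlap in all 10 panels, and Dad1 shows a pair of low libraries in each group.

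Between animals of a group, Dad1 varied more than its reads alone would give. Its SD was 3.57 times the SD expected from counting in SAL and 3.07 times in PRL. No partner reached such a ratio in either group; the next highest values were 2.28 for Stt3a in PRL and 1.92 for Ssr2 in PRL, and Ssr4, with about as many reads as Dad1, stood at 1.27 in SAL and 0.74 in PRL. The coefficient of variation of Dad1 was 31.2% in SAL and 27.4% in PRL, whereas that of Ssr4 was 11.8% and 6.99% and that of Ostc 20.7% and 7.25%. It was also lower for Rpn2 (18.4% and 23.7%) and Ssr2 (27.5% and 26.6%). Among partners with fewer reads it was higher for Stt3a (59.0% and 70.6%) and Ssr3 (50.2% and 29.0%), for Ddost (40.4%) and Rpn1 (31.7%) in SAL only, and for Stt3b (51.7%) in PRL only. The ratio to the counting SD rises with the number of reads, and Dad1 had the most. Ratios and coefficients of variation are a description over 6 animals per group and were not tested.

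For Ddost, Rpn1 and Rpn2, the other members shared by both forms of the enzyme, point values were higher in PRL, with overlapping ranges. Ddost ran from 24.5 over a median of 42.8 to 72.8 CPM in SAL and from 45.4 over 59.8 to 78.0 CPM in PRL, and its log2 fold change of 0.39 ± 0.27 (SE, interval -0.16 to 0.94) was the largest of the 10. Rpn1 ran from 62.1 over 68.9 to 128 CPM in SAL and from 78.0 over 82.4 to 115 CPM in PRL, where the highest library was a SAL library (log2 fold change 0.13 ± 0.23). Rpn2 ran from 73.6 over 103 to 119 CPM in SAL and from 73.7 over 114 to 154 CPM in PRL, with nearly the same lowest level in both groups (log2 fold change 0.21 ± 0.22).

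The STT3A form of the enzyme was represented by Stt3a and Ostc, whose point values lay on opposite sides of 0. Stt3a ran from 9.18 over 15.5 to 36.5 CPM in SAL and from 8.51 over 22.4 to 63.2 CPM in PRL, with a log2 fold change of 0.32 ± 0.40 (SE, interval -0.48 to 1.13). Ostc ran from 171 over 231 to 288 CPM in SAL and from 186 over 218 to 230 CPM in PRL. All PRL libraries of Ostc lay within the range of SAL, and the log2 fold change was -0.15 ± 0.20 (SE, interval -0.55 to 0.25). Stt3b, the catalytic subunit of the other form, ran from 15.3 over 26.3 to 36.4 CPM in SAL and from 11.5 over 31.3 to 43.5 CPM in PRL. Its PRL libraries fell into 3 at 41.4 to 43.5 CPM and 3 at 11.5, 14.2 and 21.1 CPM, around a log2 fold change of 0.02 ± 0.34.

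In TRAP, Ssr2 ran from 114 over 129 to 221 CPM in SAL and from 120 over 176 to 247 CPM in PRL (log2 fold change 0.22 ± 0.22, SE). One SAL library, replicate 2, stood apart from the other 5, which lay between 114 and 141 CPM. Ssr3 ran from 6.40 over 34.2 to 54.8 CPM in SAL and from 18.4 over 23.2 to 34.5 CPM in PRL, with the lowest and the highest library both in SAL (log2 fold change -0.34 ± 0.33). Ssr4 ran from 269 over 355 to 380 CPM in SAL and from 352 over 371 to 418 CPM in PRL, and its log2 fold change of 0.07 ± 0.18 (interval -0.30 to 0.45) was among the most precise. More than 1 transcript of Dad1, Ssr2, Ssr4 and Rpn2 was listed, with counts that may hold the same reads. For Dad1, the 2 transcripts had equal counts in every library. Counts summed over transcripts can therefore hold a read more than 1 time. The RefSeq transcript NM_001356319.1 of Ssr2, which had most reads in experiment 1, had 58.6% ± 5.74 of the count of the leading NM_001356316.1 in SAL and 60.6% ± 7.98 in PRL (SD, n = 6). For Ssr4, XM_036161871.1 had 61.7% ± 4.57 of the count of NM_001166480.2 in SAL and 60.4% ± 4.38 in PRL.

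**Figure D3:**
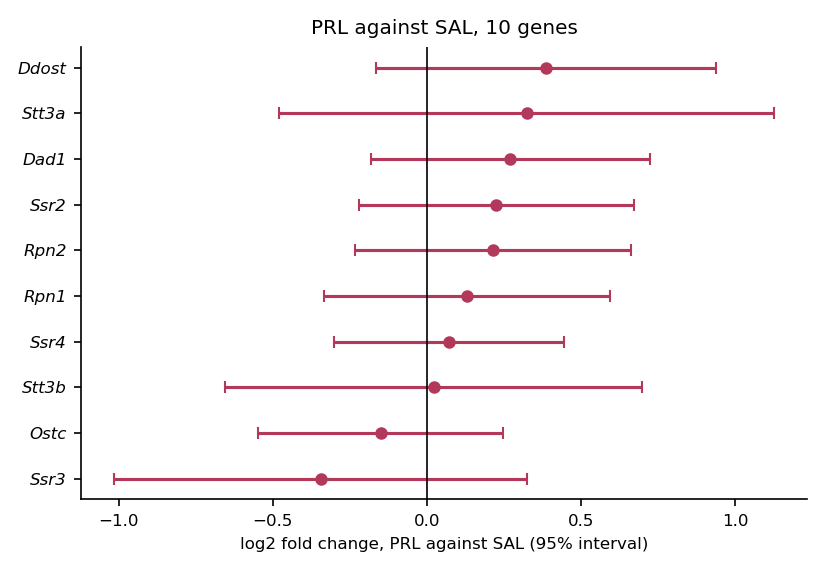
Log2 fold change of PRL against SAL for the 10 genes (points) with 95% intervals from the model over all genes of experiment 2 (n = 6 per group). Of the 10 points, 8 lie above 0 and 2, Ssr3 and Ostc, below it, and every interval crosses 0.

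None of the 10 genes passed an adjusted p of 0.05 in PRL against SAL (background 0%). With edgeR, 0 of 10696 genes passed, although 522 (4.88%) had an unadjusted p under 0.05, none of them among the 10. The log2 fold changes were above 0 for 8 and below 0 for 2, with a median of 0.17, beside 0.03 and 52.6% above 0 over all genes. For 8 of the 10 the 95% interval stayed within a 2-fold difference in either direction, the exceptions being Stt3a and Ssr3. No gene of the 10 had every PRL library above (background 0.112%) or below (background 0.028%) every SAL library. Summed over the 7 oligosaccharyltransferase genes, the level of SAL was 876 ± 205 CPM and that of PRL 1004 ± 123 CPM (SD, n = 6). Without Dad1 the sums were 500 ± 95.7 CPM in SAL and 539 ± 59.9 CPM in PRL. Those of the 3 TRAP genes were 520 ± 76.5 and 580 ± 51.2 CPM. Adipose markers, which summed to a median of 87.2 CPM in SAL and 183 CPM in PRL with overlapping ranges, moved in the same direction as these sums, and their part was not tested.

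Whether partners followed Dad1 from animal to animal was described by the correlation of log2 levels over the 12 libraries of an experiment. In experiment 2 the highest value was that of Ostc, with Pearson r = 0.616 (permutation p = 0.0325, adjusted over all genes 0.424) and Spearman rho = 0.517 (permutation p = 0.0884, adjusted 0.488). It rested partly on the low Dad1 libraries SAL 4 and SAL 5, since r was 0.288 without them, and within groups it was 0.736. For Ssr2 r was 0.548 (permutation p = 0.0656, adjusted 0.504; rho 0.490, permutation p = 0.111), and 0.503 without those libraries. Ddost gave 0.515 (permutation p = 0.0868, adjusted 0.540; rho 0.483, permutation p = 0.116), and 0.338 without them.

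Rpn1 (r = 0.366), Stt3a (0.280), Ssr4 (0.222) and Rpn2 (0.0575) came next, and Ssr3 (-0.0335) and Stt3b (-0.219) were below 0, with permutation p-values from 0.243 to 0.921. Without SAL 4 and SAL 5, r was -0.612 for Stt3b and -0.132 for Rpn1. Of the 9 partners, 1 had an unadjusted p under 0.05, against 10.8% of all genes. The median r of the partners was 0.280, beside 0.0431 over all genes, and 0.0613 without SAL 4 and SAL 5. No gene passed an adjusted p of 0.05 in this experiment, and 1152 had an unadjusted permutation p under 0.05.

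**Figure D4:**
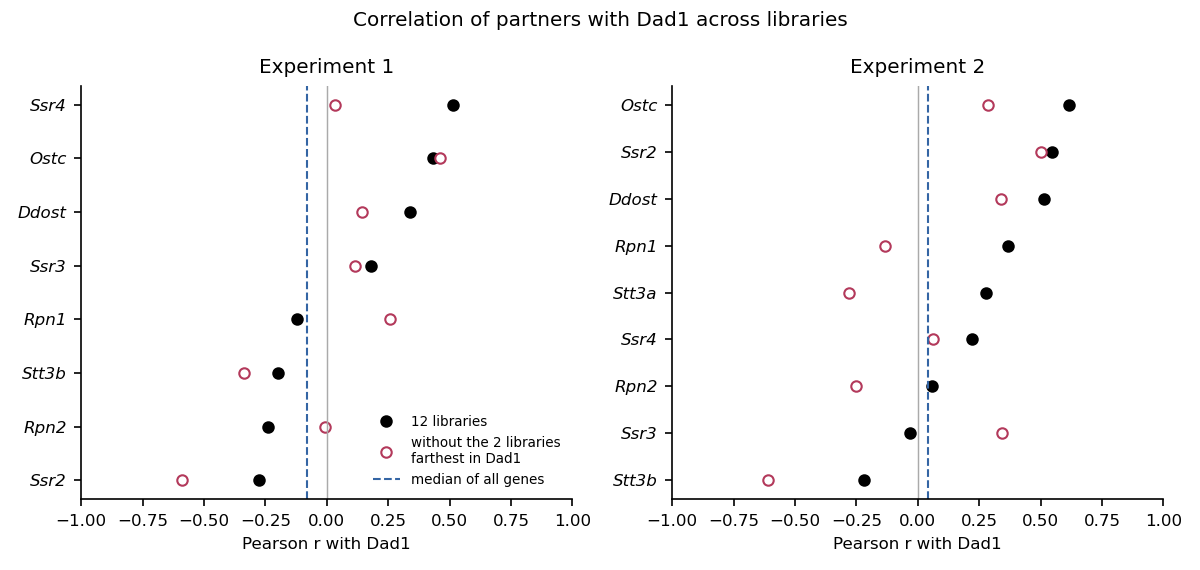
Pearson r of the log2 level of each partner with Dad1 over the 12 libraries of experiment 1 (left) and experiment 2 (right), as filled points, and again after leaving out the pair of libraries with the most extreme Dad1 level, as open points. The dashed line is the median r of all genes tested, -0.0787 in experiment 1 and 0.0431 in experiment 2, and in both panels the partners lie on both sides of 0.

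In experiment 1 the correlations of the partners with Dad1 lay on both sides of 0. The partners tested had from 7 reads (Ssr2) to 67 (Ssr4) in all. Counting noise at such depth pulls r towards 0, so these values cannot show whether the partners followed Dad1. The median r of the 8 partners tested was 0.0301, beside -0.0787 over all genes, and -0.0703 within groups beside -0.0660. Ssr4 (r = 0.513), Ostc (0.432), Ddost (0.341) and Ssr3 (0.180) were above 0, and Rpn1 (-0.120), Stt3b (-0.198), Rpn2 (-0.238) and Ssr2 (-0.277) below it, with permutation p-values from 0.088 to 0.700 and adjusted values from 0.376 upward. For Ssr4, r was 0.0356 without LP 2 and SP28wk 1, the libraries farthest in Dad1. For Rpn1, whose mean was highest at SP12wk as that of Dad1 was, r was -0.708 within groups and 0.260 without the same pair of libraries, so that its sign depended on them. No partner had an unadjusted p under 0.05, against 16.0% of all genes.

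**Figure D5:**
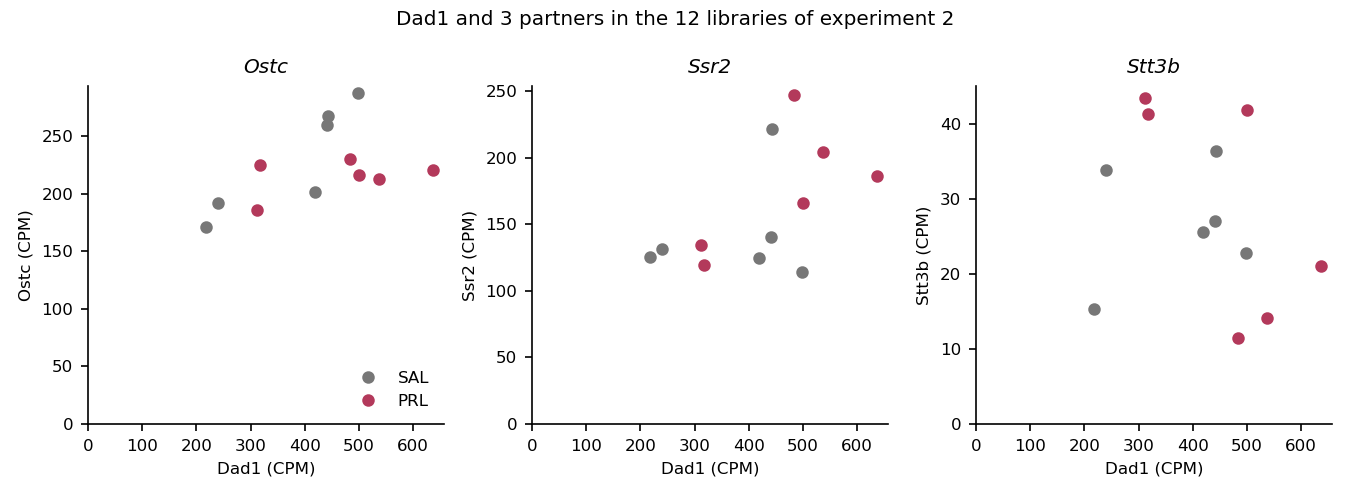
Level (CPM) of Ostc, Ssr2 and Stt3b against that of Dad1 in the 12 libraries of experiment 2 (1 point per animal, SAL in grey and PRL in red, axes from 0). Ostc is low in the pair of SAL libraries with least Dad1 and stays between 186 and 230 CPM over PRL, and the lowest Stt3b level lies at a Dad1 level of 483 CPM.

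In the ratio to Dad1 within a library, scaling to the total largely cancels. It does not cancel for the median worth of 1 count, which was added to both levels (2.95 CPM in experiment 2). In experiment 2 the log2 ratio of Ostc to Dad1 was -0.66 ± 0.28 in SAL and -1.05 ± 0.38 in PRL (SD, n = 6), a difference of -0.39 (two-sided exact permutation p = 0.0693 over 924 splits), and 4 of 6 PRL libraries lay below every SAL library. Without SAL 6 that difference was -0.47 (exact permutation p = 0.0433) and without PRL 4 it was -0.51 (exact permutation p = 0.0216). In the other direction, it was -0.33 without SAL 4 (exact permutation p = 0.132) and -0.30 without PRL 2 (exact permutation p = 0.136). Ratios of Ssr3 (-0.49, exact permutation p = 0.344) and Stt3b (-0.33, exact permutation p = 0.487) were also lower in PRL. That of Ssr3 was -0.87 without SAL 6 (exact permutation p = 0.0238) and -0.25 without SAL 5 (exact permutation p = 0.617). Ssr4 (-0.18), Rpn1 (-0.12), Rpn2 (-0.09), Ssr2 (-0.03), Stt3a (0.07) and Ddost (0.12) differed less. None of the 9 ratios had a p under 0.05 with all libraries, where the smallest p possible was 0.0021645. The p-values of the ratios are not adjusted over the 9 ratios.

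In experiment 1, ratios to Dad1 could be formed for the 4 partners with a count in at least 8 libraries. A level at 0 entered as the added 41.2 CPM alone, as for Dad1 in LP 2 and for Ddost in every LP library. The log2 ratio of Ssr4 to Dad1 was 0.08 ± 0.82 in LP, -0.81 ± 0.51 in SP12wk and 0.92 ± 0.38 in SP28wk (SD, n = 4). Rpn2 stood at -0.01 ± 2.10, -1.48 ± 0.62 and 0.13 ± 0.99, and Rpn1 at -0.79 ± 1.98, -1.07 ± 0.52 and -0.14 ± 1.14. Ddost stood at -1.84 ± 1.29, -1.92 ± 0.50 and -0.49 ± 0.45. For Ssr4 and Ddost, all SP12wk ratios were under all SP28wk ratios. Since Dad1 was selected on its levels in experiment 1, which were highest at SP12wk, low ratios there follow from that choice and carry no test.

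Further subunits of the same complexes took differing courses in experiment 1. Krtcap2 (KCP2), like Ostc a subunit of the STT3A form, counted 19 reads among LP animals, 46 for SP12wk and 26 for SP28wk. Its levels were 213 ± 205, 473 ± 131 and 206 ± 89.9 CPM (SD, n = 4), and its log2 fold change of SP12wk against LP and SP28wk was 1.15 ± 0.46 (SE; unadjusted p = 0.0112, edgeR adjusted p = 0.667). Tmem258, a small subunit shared by both forms, measured 247 ± 260, 440 ± 98.8 and 324 ± 96.4 CPM, and Ost4, the smallest, 843 ± 236, 917 ± 317 and 746 ± 332 CPM. Magt1, an oxidoreductase subunit of the STT3B form, was instead highest in LP, at 115 ± 55.8, 67.0 ± 32.1 and 51.9 ± 14.1 CPM (SD, n = 4), and its relative Tusc3 had 4 reads in all. In experiment 2 Krtcap2 (log2 fold change 0.10 ± 0.22, SE), Tmem258 (-0.01 ± 0.19) and Ost4 (0.00 ± 0.18) lay close to 0. The oxidoreductase subunits gave 0.28 ± 0.25 for Magt1 and 1.06 ± 0.53 for Tusc3, the latter on 13 reads in SAL and 31 in PRL (unadjusted p = 0.0515, edgeR adjusted p = 0.999). Ssr1, the remaining TRAP subunit, stood at -0.02 ± 0.26.

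Around these complexes, 6 lists with 87 genes covered the further subunits, the Sec61 channel, the signal recognition particle with signal peptidase, the synthesis of the dolichol-linked sugar, the trimming of N-glycans and the chaperones of the endoplasmic reticulum. None of the 59 genes tested in SP12wk against LP and SP28wk, nor of the 81 tested in PRL against SAL, passed an adjusted p of 0.05 in either direction. List medians of the former ran from -0.14 to 0.40 beside -0.06 over all genes. In SP28wk against LP, which shares its libraries with that comparison, none of the 59 passed either, and 2 above and 1 below 0 had an unadjusted p under 0.05, against 8.57% of all genes. In SP12wk against LP and SP28wk 3 of 59 had an unadjusted p under 0.05, against 6.78% of all genes. Besides Krtcap2, these were Dpm3, which anchors the enzyme that makes dolichol-linked mannose (LP 137 ± 166, SP12wk 313 ± 126 and SP28wk 155 ± 135 CPM, log2 fold change 1.00 ± 0.51, SE, unadjusted p = 0.0499, edgeR adjusted p = 0.722), and Srp19, of the signal recognition particle. Srp19 had 4 reads over LP, none over SP12wk and 7 over SP28wk (unadjusted p = 0.0184, edgeR adjusted p = 0.667). Dnajb9, a chaperone of the unfolded protein response, had 4, 1 and 7 reads (log2 fold change -1.80 ± 1.20).

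In PRL against SAL, the list of the signal recognition particle and signal peptidase had the highest median of the 6 and is described for that reason. Of its genes, 12 of 15 had a log2 fold change above 0, against 52.6% of all genes, with a median of 0.35 beside 0.03. An unadjusted edgeR p under 0.05 was found for 3, against 4.88% of all genes. Its genes were measured in the same libraries, so these counts carry no test of the list. The most precise of the named genes was Srp54a, which binds signal peptides (28.0 ± 10.8 CPM in SAL and 47.2 ± 12.8 CPM in PRL, log2 fold change 0.69 ± 0.29, SE, edgeR adjusted p = 0.891). Alg8, a glucosyltransferase that extends the dolichol-linked sugar, had 2 reads in SAL and 13 in PRL (log2 fold change 2.19 ± 0.89, edgeR adjusted p = 0.810). On the other side, Lman1, a cargo receptor for glycoproteins that leave the endoplasmic reticulum, measured 24.9 ± 5.90 CPM in SAL and 11.4 ± 5.69 CPM in PRL (log2 fold change -0.95 ± 0.37, unadjusted p = 0.0127, edgeR adjusted p = 0.708). Dpagt1, which starts the dolichol-linked sugar, had a log2 fold change of -0.47 ± 0.31. The remaining lists had medians between -0.04 and 0.10 in this comparison.

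The 5 genes most correlated with Dad1 held no partner in either experiment. In experiment 1 only Rpn1, Rpn2 and Ssr4 among the partners had enough counts to be ranked, whereas in experiment 2 every partner was. Since 5 genes out of so many would rarely hold a given partner, their absence is a description and says little about the partners. Among the 1744 genes with a count in at least 10 libraries of experiment 1, the 5 with the highest Pearson r were Gm43247 (0.936), Gm15682 (0.919), Gm15772 (0.908), Mfsd1 (0.904) and Rpl26 (0.902), with rho from 0.795 to 0.916 and r from 0.750 to 0.890 without LP 2 and SP28wk 1. Gm15772 and Rpl26 differed by at most 2 counts in any library and may hold the same reads. Gm43247 (permutation p = 1e-05, the smallest the 100000 draws can give, adjusted 0.0254) had its mean of 919 ± 429 CPM among LP animals beside 1556 ± 296 CPM for SP12wk and 1030 ± 230 CPM for SP28wk (SD, n = 4). Among 7944 such genes in experiment 2 the 5 were Hsp90ab1 (0.906), Wwc1 (0.904), Gpd1 (0.900), Idh2 (0.898) and Ldhb (0.898), with rho from 0.818 to 0.958, r from 0.784 to 0.927 without SAL 4 and SAL 5, and adjusted permutation p-values from 0.0951 to 0.102. Hsp90ab1, a cytosolic chaperone, stood at 163 ± 51.2 CPM for SAL beside 207 ± 62.7 CPM for PRL, and Ldhb, a lactate dehydrogenase subunit, 431 ± 112 and 514 ± 155 CPM (SD, n = 6). The 2 lists of 5 shared no gene.

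No relation of Dad1 with sequencing depth was detectable over all libraries, with r of 0.0792 and rho of 0.0280 with the log2 total in experiment 1 (permutation p = 0.805 and 0.939) and 0.174 and 0.287 in experiment 2 (permutation p = 0.585 and 0.363). Without the 2 libraries farthest in depth r was 0.525 in experiment 1 and 0.0293 in experiment 2. With the ribosomal protein share its r was 0.718 in experiment 1 (permutation p = 0.0132, adjusted over 19 relations 0.125) and -0.513 in experiment 2 (permutation p = 0.0885, adjusted 0.248), with rho 0.434 (permutation p = 0.162) and -0.336 (permutation p = 0.289). In experiment 1 r was 0.250 without the 2 libraries farthest in that share and 0.880 within groups. Of the other genes, Stt3a (r = -0.587, permutation p = 0.0455, rho = -0.517, permutation p = 0.0882) and Rpn1 (r = -0.565, permutation p = 0.0562, rho = -0.566, permutation p = 0.0584) had the strongest relation with depth, both in experiment 2, and adjusted over 19 relations their p-values were 0.409 for r and 0.623 for rho. Without the 2 libraries farthest in depth these r were -0.435 and -0.554.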

How the data were processed

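Kidney RNA of 24 hamsters was read as nanopore cDNA, made with a direct cDNA kit per the methods and a PCR-cDNA kit per the labels. The authors basecalled, trimmed and filtered reads with Guppy, Porechop and Filtlong and used Minimap2 for alignment against the mouse genome. The submitters' processing notes name minimap2 and Salmon. The deposited values are estimated counts for mouse RefSeq transcripts, with no scaling by the authors. Hamster reads that match mouse poorly are lost, which may differ between genes, and levels were not compared between genes because no transcript lengths were used here.

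The transcript with most counts stood for each gene, and CPM is its count divided by the library's total of such counts, times 1000000. Rounded counts were fitted with the quasi-likelihood test of edgeR 4.0.16 (R 4.3.3, TMM, 1 model per experiment, Benjamini-Hochberg adjustment over all genes), for genes with a count in at least 4 (experiment 1) or 6 (experiment 2) of 12 libraries. The SE is the log2 fold change over the square root of F. No fitted fold change is given where a group was at 0. Correlations used log2(CPM + the median worth of 1 count) and 100000 permutations (numpy 2.4.6). Ratios to Dad1 used the same log2 levels and exact permutation tests (scipy 1.17.1). Alternatives were DESeq2 1.42.0, limma-voom (limma 3.58.1), other filters, counts summed over transcripts, a replicate block, other pseudocounts and each library left out.

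Replicates were separate animals. Their counts differed by more than sampling noise in every pair (chi-square per degree of freedom 1.89 to 10.1). The members and lists were chosen with earlier results of these data known. Named genes are the members, the 2 genes per direction with the smallest p over the 6 lists in SP12wk against LP and SP28wk and in PRL against SAL, and the 5 genes most correlated with Dad1 in each experiment. The remaining subunits and the ribosomal protein share were added after values were seen. The edgeR step was tested on simulated data before use. In SP12wk against LP and SP28wk it recovered 22.4% of log2 changes of 1 and 86.6% of changes of 2. In PRL against SAL it recovered 44.8% and 98.5%. The changed genes were above a set mean count, which most members did not reach in experiment 1.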

Additional observations from a re-analysis of the deposited data

Results flagged for a closer look

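In 6 of 47 sets of libraries (1 gene in 1 group) the highest library stood apart from the others of its group. In 5 of them, all in experiment 1, the other libraries were at 0 and the high value rested on 1 to 3 counts, so that any single library with a read stands apart by construction and the usual chance rate of about 1 in 20 does not apply. These were Stt3a in LP replicate 1 (47.0 CPM, 1 count), Stt3b in LP replicate 3 (166 CPM, 3 counts), Stt3b in SP12wk replicate 4 (56.5 CPM, 2 counts), Ssr2 in SP12wk replicate 1 (40.9 CPM, 1 count) and Ssr3 in LP replicate 4 (77.7 CPM, 2 counts). The remaining one was Ssr2 in SAL replicate 2 of experiment 2, with 221 CPM on 85 counts.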

How the results depend on the processing

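No member passed an adjusted p of 0.05 under any alternative or with any library left out. Over all genes, the 2 calls in SP12wk against LP and SP28wk were 0 with DESeq2, limma-voom, no filter, the stricter filter and summed counts, and 0 to 2 with a library left out (0 without LP 4, SP12wk 1, 2 or 3, or SP28wk 3 or 4). The 11 calls in SP28wk against LP were 2 with DESeq2, 30 with limma-voom, 5 with the stricter filter, 0 with summed counts and 8 to 56 with a library left out (56 without LP 4, 30 without SP28wk 1). The 0 calls in PRL against SAL were 92 with no filter, 1 with summed counts, 52 with the replicate block and 0 to 44 with a library left out (44 without PRL 4, 27 without SAL 6, 26 without PRL 3, 1 without SAL 5). The cause was not tested. Correlations of same-numbered deviations ran from -0.0948 to 0.171 in experiment 1 and from -0.146 to 0.202 in experiment 2. Those of differently numbered deviations ran from -0.179 to 0.195 and from -0.198 to 0.178. Such weak values cannot decide whether replicate numbers paired the animals.

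Signs turned for the log2 fold change of SP28wk against LP of Ostc (-0.13 with limma-voom, -0.74 to 0.70 with a library left out), Rpn2 (0.41 with limma-voom, 0.0016 with no filter, 0.051 with the replicate block, -0.45 to 0.82), Ssr3 (-0.11 with DESeq2, -0.57 to 0.47) and Dad1 (0.31 with limma-voom, 0.03 with no filter, -0.54 to 0.40), for Stt3b in PRL against SAL (-0.075 with limma-voom, -0.034 with the replicate block, -0.20 to 0.12) and for Ssr4 in SP12wk against LP and SP28wk (-0.37 to 0.051, above 0 without LP 4). The median r of partners with Dad1 in experiment 1 was -0.0703 with deviations from group means and -0.0328 to 0.149 with a library left out (below 0 without LP 2, SP12wk 2 or SP12wk 3), and in experiment 2 it was 0.150 to 0.400. With a library left out, 0 to 2 ratios to Dad1 passed 0.05 (2 without SAL 6, 1 without PRL 4), and ratios turned sign for Ddost (-0.024 to 0.29), Rpn1 (-0.29 to 0.020), Rpn2 (-0.24 to 0.086), Stt3a (-0.18 to 0.36, and -0.040 with 5 times the pseudocount) and Ssr2 (-0.18 to 0.083). Leaving out the only library with a count of Stt3b or Ssr3 in a group gave no value.

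In experiment 1 depth limits what can be seen, since no member had more than 18 reads in a library.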
